A study of Rattus norvegicus with 3 samples.

Results

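The genes described here are 10 that cells switch on when oxygen is short, measured in rat brainstem after traumatic brain injury and hand acupuncture. They were chosen by name, with earlier results of these data known, so the list cannot be taken as independent of the values. They are the angiogenic growth factor Vegfa, the vasodilator peptide Adm, the oxygen-sensing enzyme Egln3, the mitophagy protein Bnip3 and the ankyrin repeat gene Ankrd37. The others are the inducible glycolysis genes Hk2, Pfkfb3, Pfkfb4, Pgk1 and Ldha. All 10 were on the array, through 16 probe sets, among 14217 genes named by exactly 1 symbol. Each gene was read from its probe set with the brightest mean over the arrays, as a log2 MAS5 signal, the Affymetrix summary of a probe set in 1 value. The series holds 3 Affymetrix expression arrays, 1 labelled Sham, 1 labelled TBI and 1 labelled Hand Acu, all of Rattus norvegicus brainstem taken 1 h after modelling. Tissue of 5 rats was mixed, read here as 1 pool for each array, and 6 µg of total RNA was labelled. Whether the acupuncture rats had been injured too is not stated in the labels, and neither are strain, sex, age, needle site and type of injury. With 1 pool for each group there was no replicate, so the differences carry no error estimate and were not tested.

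When oxygen falls, the prolyl hydroxylases that mark the transcription factor HIF for destruction slow down. HIF then builds up and binds short DNA sites near its target genes. Its targets bring in blood vessels, clear mitochondria and turn metabolism towards glycolysis, in which glucose is split to pyruvate and lactate without oxygen. In the brain, such genes are known to respond to ischaemia and to injury, mostly over hours.

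On the hand acupuncture array, 7 of the 8 members above the signal floor were at their highest of the 3 arrays, as were 32.3% of all genes above it, and most of the members' differences were small. Pfkfb4, Ankrd37 and Pgk1 had the widest ranges of these 8, at 1.72-fold, 1.61-fold and 1.51-fold between the highest and the lowest array. For Pgk1 a second bright probe set was level, and for Pfkfb4 a second, dim one went the opposite way. The other 5 members stayed within 1.14-fold, and Vegfa was the exception in direction, lowest on the hand acupuncture array. Between TBI and sham no member was 1.5-fold apart, beside 1.55% of all genes above the floor. The floor was the median of the mean log2 signal over all probe sets other than controls, 7.44, and Adm and Hk2 lay below it. Pfkfb4 reached it only through the hand acupuncture array: its mean over the sham and TBI arrays was 7.41. A count over members above the floor is therefore partly set by that choice and is given as a description.

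HIF binds a core written as ACGTG or GCGTG, so the 250 bases before the start of each gene were searched for both on either strand. The sequences are those of RefSeq on the build GRCr8, and 9 of the 10 members had one. Of these, 4 held a core (Ankrd37, Bnip3, Pfkfb3 and Ldha), and each of those 4 held the palindrome CACGTG, in which ACGTG reads on both strands. CACGTG is also the E-box bound by clock and MYC proteins, so the letters do not name the factor. Over all 33469 promoters of that length, ACGTG was found in 16.6%, GCGTG in 25.9%, either of them in 36.7% and CACGTG in 5.59%. The members were listed as known hypoxia targets, so a higher share among them is part of how they were chosen. The 4 promoters that hold a core are shown with Pfkfb4, the member above the floor with the widest range, whose window held none. Each runs from 5′ to 3′ towards the gene, ends at the base before the start, and has the cores in capitals. They lie at chr16:53001257-53001506 on the plus strand, chr1:203154963-203155212 on the minus strand, chr17:71944683-71944932 on the plus strand, chr1:106507842-106508091 on the plus strand and chr8:118525916-118526165 on the plus strand.
Ankrd37: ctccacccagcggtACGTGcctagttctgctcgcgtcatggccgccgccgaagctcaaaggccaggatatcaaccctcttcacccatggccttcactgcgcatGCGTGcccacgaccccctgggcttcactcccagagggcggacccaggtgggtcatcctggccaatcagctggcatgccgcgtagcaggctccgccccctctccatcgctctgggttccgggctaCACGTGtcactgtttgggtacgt
Bnip3: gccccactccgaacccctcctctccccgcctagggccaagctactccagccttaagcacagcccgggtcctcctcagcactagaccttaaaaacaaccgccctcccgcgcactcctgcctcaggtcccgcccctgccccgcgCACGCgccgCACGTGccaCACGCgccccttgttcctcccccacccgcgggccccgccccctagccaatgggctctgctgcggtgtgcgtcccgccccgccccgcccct
Pfkfb3: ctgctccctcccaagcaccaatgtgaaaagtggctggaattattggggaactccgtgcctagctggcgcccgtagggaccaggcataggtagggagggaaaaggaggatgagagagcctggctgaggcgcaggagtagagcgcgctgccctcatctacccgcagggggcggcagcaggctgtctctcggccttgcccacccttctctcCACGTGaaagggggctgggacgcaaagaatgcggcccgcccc
Ldha: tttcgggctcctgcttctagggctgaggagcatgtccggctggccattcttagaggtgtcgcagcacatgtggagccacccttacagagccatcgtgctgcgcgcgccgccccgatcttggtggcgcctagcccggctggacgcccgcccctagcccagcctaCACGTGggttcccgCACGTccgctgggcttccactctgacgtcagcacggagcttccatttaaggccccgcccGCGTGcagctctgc
Pfkfb4: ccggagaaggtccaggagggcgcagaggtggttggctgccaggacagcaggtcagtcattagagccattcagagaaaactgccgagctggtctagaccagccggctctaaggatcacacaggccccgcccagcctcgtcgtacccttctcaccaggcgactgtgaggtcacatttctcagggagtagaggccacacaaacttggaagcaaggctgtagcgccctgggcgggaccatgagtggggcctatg
The Ankrd37 window has CACGTG with its first base 23 bases before the start, GCGTG at 147 and ACGTG at 236. In Bnip3, CACGTG at 99 stands between a pair of CACGC, the other strand of GCGTG, at 108 and 90. Ldha has CACGTG at 87, CACGT at 73 and GCGTG at 14, and Pfkfb3 has CACGTG alone, at 42. The windows of Vegfa, Adm, Egln3 and Hk2 held no core either, which says only that these letters are not in those 250 bases.

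The secreted signals come first in the pathway's effect on tissue. Vegfa, the growth factor that makes vessels sprout and leak, had a log2 signal of 10.26 for sham, 10.28 for TBI and 10.09 for hand acupuncture. Sham and TBI were nearly equal (TBI minus sham 0.015) and hand acupuncture was the lowest of the 3, 1.14-fold below TBI (log2 difference -0.18) and -0.17 from sham. Its other probe set above the floor gave 7.65, 7.71 and 7.47, in the same order, with hand acupuncture minus TBI at -0.25. Of the members with a second probe set above the floor, Vegfa and Pgk1, the readings of Vegfa gave 1 order of the arrays and those of Pgk1 did not. Genes of like signal, those between the 75th and 90th percentile of probe sets, had an SD of 0.15 for hand acupuncture minus TBI, slightly less than the Vegfa difference. Adm, the gene of adrenomedullin, which widens vessels, had 5.68, 5.51 and 5.14 across sham, TBI and hand acupuncture. All 3 values were below the floor, where the SD of genes was 1.00 for hand acupuncture minus sham, wider than the Adm difference of -0.54. Adm thus has no readable difference here, and its order is given only as values.

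Egln3 is one of the prolyl hydroxylases that sense oxygen and is itself switched on by HIF, which closes a feedback loop. Its log2 signal was 9.00 for sham, 9.03 for TBI and 9.17 for hand acupuncture. The arrays followed the order sham, TBI, hand acupuncture, but the widest difference, 0.16, was below the SD of 0.26 among genes of like signal. Bnip3, an outer mitochondrial membrane protein that directs mitophagy, had 12.22, 12.25 and 12.31 in the same order. Its range of 0.089 was 1.06-fold, the second narrowest of the 8 members above the floor after Pfkfb3. Bnip3 was thus nearly level over the 3 arrays.

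Ankrd37, an ankyrin repeat gene known as a direct HIF target, was the one member that was lowest on the TBI array. Its log2 signal was 8.06 for sham, 7.62 for TBI and 8.31 for hand acupuncture. TBI was 1.36-fold below sham (-0.45), and hand acupuncture was 1.61-fold above TBI (0.69) and 0.24 above sham. Of the genes from the floor to the 75th percentile, 2.31% were at least 1.5-fold apart between hand acupuncture and TBI in either direction, and Ankrd37 was among them. Both of its larger differences rest on the TBI array, so a deviation of that 1 array would appear in each. The gene had 1 probe set, so no second reading of it was at hand.

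**Figure D1:**
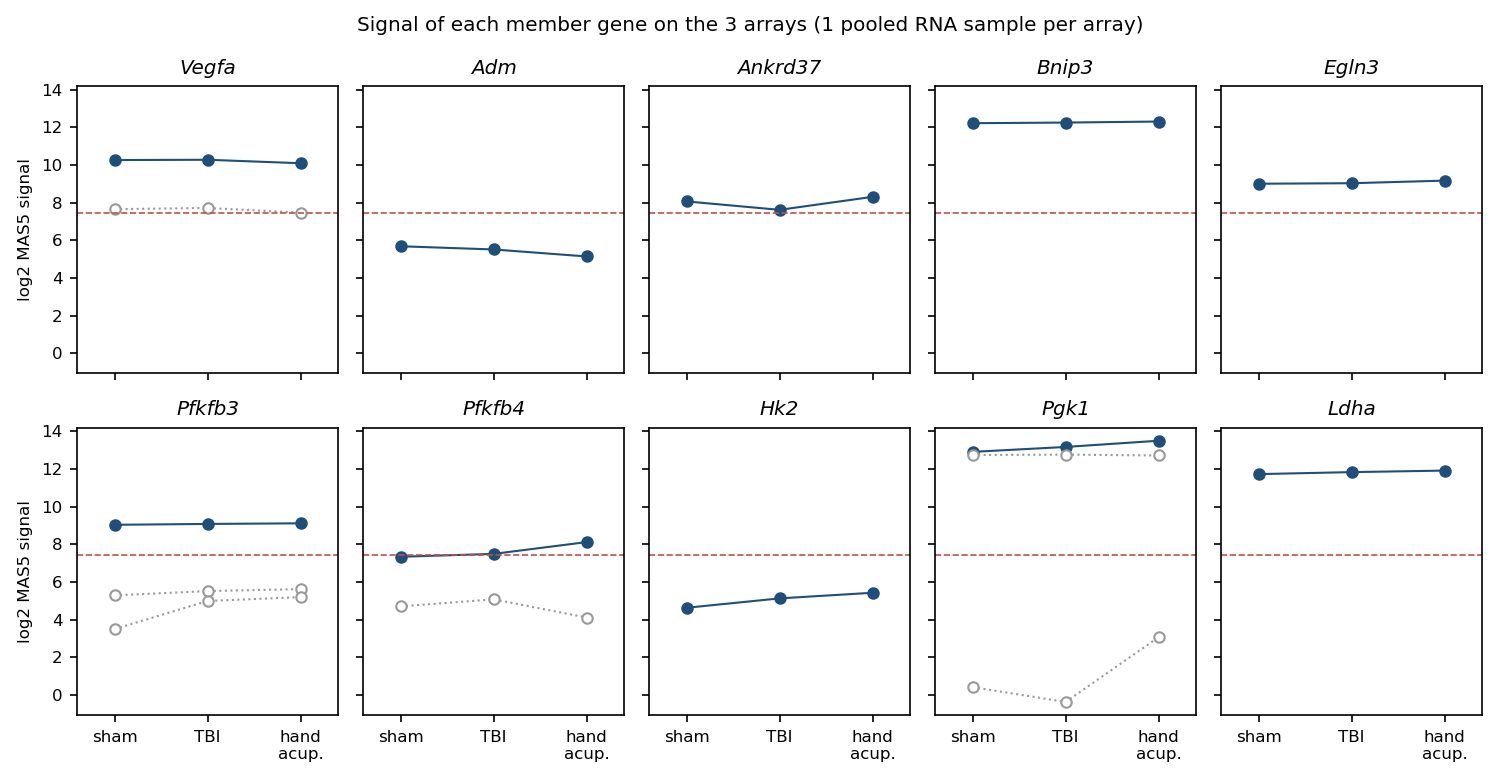
Log2 MAS5 signal of the 10 members across sham, TBI and hand acupuncture, 1 pool of RNA each. Filled points are the probe set used, open points on dotted lines the other probe sets of the gene, and the dashed line is the floor of 7.44. Adm and Hk2 lie below the floor, and the 2 bright probe sets of Pgk1 part on the hand acupuncture array.

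Hk2 and the PFKFB enzymes act at the entrance of glycolysis. Hk2, the inducible hexokinase, traps glucose in the cell by phosphorylating it. Its log2 signal was 4.63, 5.13 and 5.42 across sham, TBI and hand acupuncture. The values run upwards by 0.80, 1.74-fold, but all lie below the floor, where 37.4% of genes were at least 1.5-fold apart between hand acupuncture and sham. Hk2 therefore has no readable difference, although its order is that of Pfkfb3, Pfkfb4, Pgk1 and Ldha.

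Pfkfb3 and Pfkfb4 make and break the sugar bisphosphate that activates phosphofructokinase, the step that paces glycolysis. Pfkfb3 was close to level, with a log2 signal of 9.03 for sham, 9.08 for TBI and 9.11 for hand acupuncture. Pfkfb4 had 7.34, 7.49 and 8.12, so that sham lay under the floor and hand acupuncture well over it. Hand acupuncture was 1.54-fold above TBI (0.63) and 1.72-fold above sham (0.78). The paralogs thus differed from each other: the range was 0.079 for Pfkfb3 and 0.78 for Pfkfb4. The other probe set of Pfkfb4 was dim, at 4.70, 5.07 and 4.11, and lowest on the hand acupuncture array, the opposite of the one used. The mean of both probe sets was -0.17 for hand acupuncture minus TBI, so the direction for Pfkfb4 holds for its brighter probe set alone. Of 2 further Pfkfb3 probe sets, both below the floor, 1 was 2.82-fold higher on the TBI array than on sham, from 3.49 to 4.99, where signals are erratic; both followed the order of the one used.

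Pgk1 and Ldha stand at the lower end of the pathway. Pgk1 makes the first ATP that glycolysis returns, and Ldha turns pyruvate into lactate. Pgk1 had a log2 signal of 12.91 for sham, 13.17 for TBI and 13.50 for hand acupuncture. Each array stood above the one before, with TBI 1.20-fold above sham (0.26), hand acupuncture 1.26-fold above TBI (0.33) and 1.51-fold above sham (0.59). Among the 2216 genes above the 90th percentile of signal, 10 were at least 1.5-fold apart between hand acupuncture and sham, 0.451%, and Pgk1 was 1 of the 5 that were higher on hand acupuncture. The SD of those genes was 0.14 for that comparison, so the Pgk1 difference was 4.34 times the SD.

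A second bright probe set of Pgk1 did not show this. It had a log2 signal of 12.74, 12.76 and 12.72 across sham, TBI and hand acupuncture, level within 0.046, and hand acupuncture minus sham was -0.026. Its name carries the suffix that Affymetrix gives to probe sets that may match more than 1 transcript, and Pgk1 is known to have processed pseudogenes. On the other hand, its listed source sequence is a RefSeq mRNA, and that of the brightest Pgk1 probe set is not. One more probe set, at 0.41, -0.38 and 3.07, was far below the floor. The Pgk1 difference is thus a property of 1 of 2 bright probe sets, and which of them follows the gene was not tested. Ldha, with 1 probe set, had 11.73, 11.83 and 11.92, in the same order as the brightest Pgk1 probe set but by a smaller step. Hand acupuncture minus sham was 0.19 for Ldha, 1.14-fold, a little over the SD of 0.14 among genes of like signal.

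**Figure D2:**
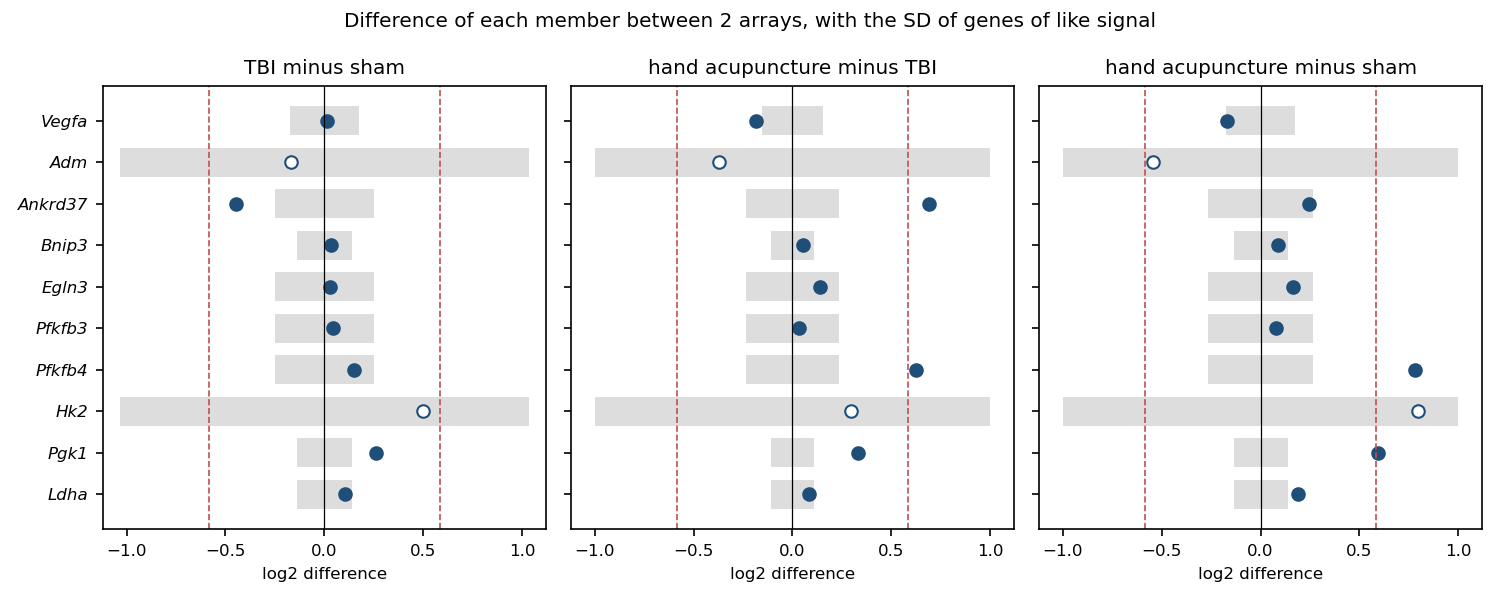
Log2 difference of each member for the 3 comparisons. Grey bars span 1 SD to either side of 0 over genes of like signal, open points are the members below the floor, and dashed lines mark 1.5-fold. Over all 10 members, 2 lay beyond the grey bar for TBI minus sham, 4 between hand acupuncture and TBI, and 3 between hand acupuncture and sham, beside 24.3%, 23.9% and 23.8% of all 14217 genes in turn.

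TBI against sham asks whether genes of low oxygen differed in the brainstem 1 h after injury. Of the 8 members above the floor, 7 were higher on the TBI array and 1, Ankrd37, was lower. They ran from -0.45 to 0.26, with a median log2 difference of 0.040. The median over all 9241 genes above the floor was 0.0043, and about as many of these genes were higher as lower. No member was at least 1.5-fold apart, beside 1.55% of all genes in either direction and 0.866% higher. The 7 higher members ranged from 0.015 for Vegfa to 0.26 for Pgk1, and 6 of them were within the SD of genes of like signal. With both members below the floor included, 8 of 10 were higher and the median was the same, 0.040.

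For hand acupuncture against TBI, 7 of the 8 were higher on the hand acupuncture array and Vegfa was lower. The median was 0.11, against -0.0024 over all genes, and 0.082 without Pfkfb4. Among all genes above the floor, about as many were higher as lower. Ankrd37 and Pfkfb4 were at least 1.5-fold higher, 2 of 8, beside 1.21% of all genes in either direction and 0.617% higher. In the band of both, from the floor to the 75th percentile, 2.31% of genes were at least 1.5-fold apart in either direction and 1.2% were higher. Pfkfb4 reached the floor only through the hand acupuncture array, and without it Ankrd37 alone is counted. Neither gene had a second probe set above the floor. With 50 added to the linear signal before the log, which damps dim probe sets, neither passed 1.5-fold, and 0.714% of all genes did.

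For hand acupuncture against sham, again 7 of the 8 were higher and Vegfa was lower, while about as many of all genes were higher as lower. The median was 0.18, against 0.0037 over all genes, and 0.16 without Pfkfb4. Pfkfb4 and Pgk1 were at least 1.5-fold higher, 2 of 8, beside 1.89% of all genes in either direction and 0.996% higher. No member above the floor was 2-fold apart, beside 0.0974% of all genes for TBI minus sham, 0.0433% between hand acupuncture and TBI and 0.195% between hand acupuncture and sham. Pgk1 lay just past 1.5-fold and was at 0.56, within it, under quantile normalization, and its second bright probe set was at -0.026. Pfkfb4 was at 0.092, no longer 1.5-fold apart, with the mean of its probe sets. It is counted here only through the hand acupuncture array, which lifted its mean over the floor. In its band, from the floor to the 75th percentile, 3.56% of genes were at least 1.5-fold apart in either direction and 1.91% were higher. The 3 comparisons share arrays, so their values for a gene are tied: 6 of the 8 members, all but Vegfa and Ankrd37, had the order sham, TBI, hand acupuncture. That order was found in 17.6% of all genes above the floor, and the hand acupuncture array was the highest in 32.3% of them. The 6 include Pfkfb4, which reached the floor only through the hand acupuncture array. They also include Pgk1, whose second bright probe set was lowest on that array. The list was chosen with earlier results known, so the count of 6 is only a description.

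**Figure D3:**
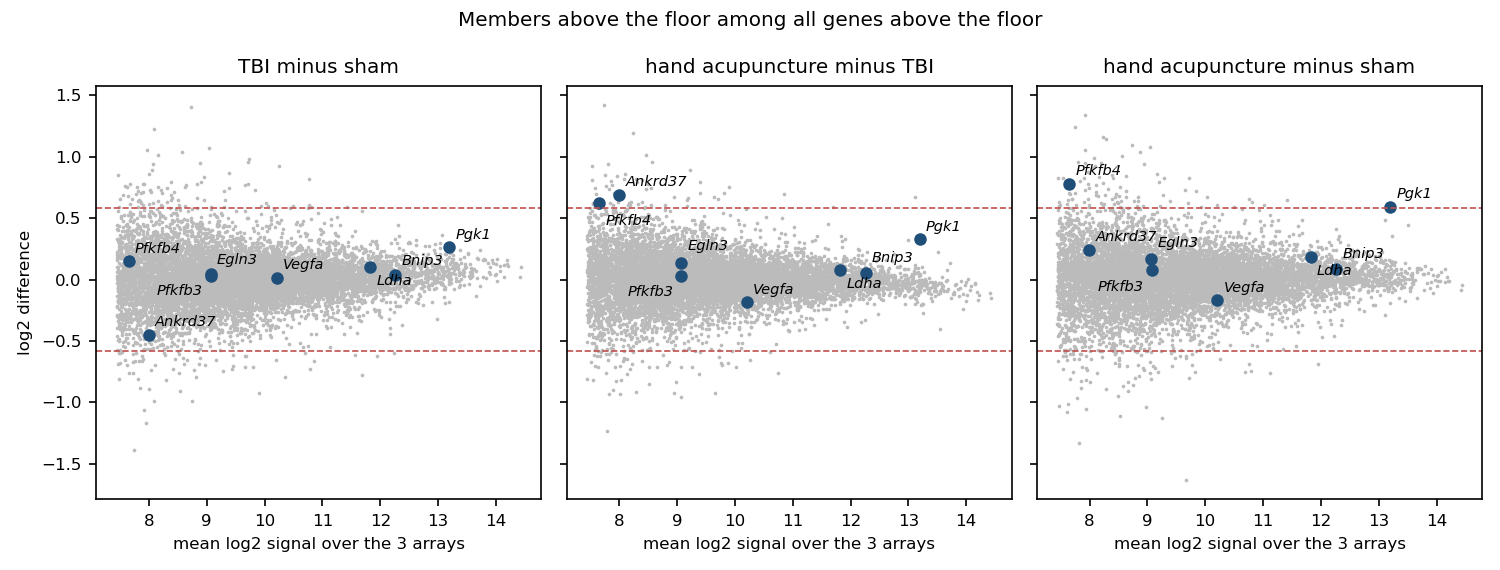
Log2 difference against the mean log2 signal for the 9241 genes above the floor (grey), with the 8 members above it (blue) and dashed lines at 1.5-fold. The cloud narrows as signal grows: Pfkfb4 and Ankrd37 sit at its wide, dim end, and Pgk1 lies above most of the cloud at its bright end on hand acupuncture minus sham.

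Of the RNA integrity controls, only beta-actin moved in the order sham, TBI, hand acupuncture. The ratio of 3′ to 5′ signal of beta-actin, which rises as RNA is degraded, stood at 5.58 for sham, 6.37 for TBI and 6.69 for hand acupuncture, and that of Gapdh was 1.25, 1.20 and 1.28. Cerebellum markers separated sham from the others: of 8 listed, 8 were found, 7 lay above the floor and all 7 were lower than sham on both other arrays. Their summed linear signal was 17453, 12605 and 11847 across sham, TBI and hand acupuncture. Endothelial markers, 7 of 8 found and all above the floor, summed to 6165, 5291 and 5320, and the 8 astrocyte markers, all above the floor, to 64341, 68447 and 64185. Microglia markers, 8 of 8 found and 6 above the floor, summed to 4252, 4895 and 4178. The sums were 1885, 1611 and 1559 for 6 pericyte and smooth muscle markers, 17836, 19452 and 16244 for 6 choroid plexus and ependymal markers, and 11480, 14424 and 10944 for 2 red cell genes. They were 45838, 48175 and 48055 for 6 neuron markers and 47732, 50462 and 49060 for 5 oligodendrocyte markers. Such a sum follows its brightest genes. Of 5 choroid plexus and ependymal markers above the floor, 4 were higher than sham on TBI and 1 on hand acupuncture, Foxj1, at 0.49 and 0.56. Of the 6 neuron markers, 5 were higher than sham on each array and Rbfox3 was lower, at -0.31 and -0.27. Only 3 of the pericyte and smooth muscle markers were above the floor. In pooled tissue, fewer cells of a type and less RNA for each cell cannot be told apart. Of 9 brainstem neuron genes, 6 were found and 3 were above the floor: Slc17a6, the glutamate transporter of hindbrain neurons, Chat of cholinergic neurons and the hindbrain homeobox gene Hoxa5. All 3 were higher than sham on both other arrays, Hoxa5 by 2.33-fold on TBI and 1.99-fold on hand acupuncture. The 6 summed to 5340, 6524 and 6120, mostly through Slc17a6, at a log2 signal of 12.26 for sham. Slc6a5, the glycine transporter, and the noradrenergic genes Dbh and Slc6a2 lay below the floor. The part of RNA integrity, of the cerebellum or other regions in the dissected tissue, or of other cell types in the members' differences was not tested.

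Transcripts of the oxygen sensor had medians close to 0 as a list, and the arrays do not measure HIF protein. Of 12 listed genes of HIF and its regulators, 11 were found and 9 were above the floor, none of them 1.5-fold apart in any comparison. Of these 9, 3 were higher and 6 lower for TBI minus sham (median -0.020), 7 and 2 between hand acupuncture and TBI (0.058), and 6 and 3 between hand acupuncture and sham (0.032). Ep300, the coactivator that HIF recruits, had a log2 signal of 10.56, 10.56 and 10.28 across sham, TBI and hand acupuncture, and its dim second probe set went the opposite way. Egln1, the main oxygen-sensing prolyl hydroxylase, had 9.55, 9.52 and 9.76, which places hand acupuncture highest, as for Egln3. Cited2, a HIF target that competes for the coactivator, had 11.53, 11.32 and 11.32, with its second bright probe set also lower on both arrays than on sham. Egln2, another hydroxylase of the family, had 10.23, 10.10 and 10.24. Between hand acupuncture and TBI, Ep300 (-0.28) and Egln1 (0.24) differed by more than the SD of genes of like signal, 0.15. For TBI minus sham, Cited2 (-0.21) did so too, where that SD was 0.14. Hif1a and Epas1, HIF subunits that oxygen controls, were named for their role after their values were seen. Hif1a had 12.25, 12.30 and 12.35, and Epas1 had 12.12, 12.10 and 12.15, lowest on TBI. The widest Hif1a difference, 0.11 between hand acupuncture and sham, was below the SD of genes of like signal, 0.14.

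Other known hypoxia-inducible genes were split more evenly than the members. Of 29 listed, 27 were found and 21 were above the floor, with 11 higher and 10 lower for TBI minus sham (median 0.0056), 8 and 13 between hand acupuncture and TBI (-0.042), and 9 and 12 between hand acupuncture and sham (-0.13). Over all 27 found the last median was 0.023, so its sign depends on the floor. The 1 gene at least 1.5-fold apart was Rora, a nuclear receptor that is also abundant in the cerebellum, with 9.35, 9.08 and 8.68 across sham, TBI and hand acupuncture. Hmox1, which breaks down haem, had 7.70, 7.71 and 7.19, so that hand acupuncture was below the floor. Kdm4b, a histone demethylase, had 8.61, 8.33 and 8.19, and Angptl4, a secreted inhibitor of lipoprotein lipase, had 7.82, 8.06 and 7.69. In the probe sets used, these 4 were lowest on the hand acupuncture array. The further probe sets of Rora and Kdm4b, all below the floor, were higher there than on TBI, by 0.45 for Rora and by 0.35 and 0.57 for Kdm4b. The difference between the lists, and the part of the lower cerebellum markers in it, was not tested.

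Receptors and relatives of Vegfa and Adm went in both directions. Calcrl, the receptor of adrenomedullin, had a mean signal below the floor and is not among those counted. Of 15 listed receptors and relatives, 14 were found and 9 were above the floor, with 6 higher and 3 lower for TBI minus sham (median 0.17), 5 and 4 between hand acupuncture and TBI (0.029), and 6 and 3 between hand acupuncture and sham (0.20), none 1.5-fold apart. Nrp2, a coreceptor of VEGF and semaphorins, had 9.37, 9.24 and 9.67 across sham, TBI and hand acupuncture. Nrp1, its paralog, had 9.39, 9.68 and 9.74, with 0.34 between hand acupuncture and sham and 0.078 in its second probe set above the floor. In the probe sets used, both neuropilins were highest on the hand acupuncture array, where Vegfa was lowest. The second Nrp1 probe set was highest on TBI instead, with hand acupuncture minus TBI at -0.10. Ackr3, a scavenger receptor of chemokines and adrenomedullin, had 8.65, 9.07 and 8.92, and Ramp3, a partner of the adrenomedullin receptor, had 7.87, 8.04 and 7.71. The endothelial receptors of Vegfa, named for their role after their values were seen, were below sham on both other arrays: Flt1 had 8.41, 8.22 and 8.38, and Kdr 9.07, 8.91 and 8.89.

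Glycolytic enzymes outside the members had medians close to 0. Of 25 listed, 19 were found and 14 were above the floor, with 6 higher and 8 lower for TBI minus sham (median -0.033), 5 and 9 between hand acupuncture and TBI (-0.037), and 4 and 10 between hand acupuncture and sham (-0.057), none 1.5-fold apart. Over all 19 found, the median for TBI minus sham turned to 0.018. Pfkfb2, a paralog of Pfkfb3 and Pfkfb4, had 8.89, 8.84 and 8.61, lowest on the hand acupuncture array. Pfkm, the muscle form of phosphofructokinase, had 11.60, 11.41 and 11.36, and its second probe set above the floor went the same way, with -0.21 for hand acupuncture minus sham. Eno1, an enolase, had 12.13, 12.07 and 11.96, and Aldoc, the aldolase of astrocytes and Purkinje cells, had 13.42, 13.37 and 13.28. In the probe sets used for them, these 4 ran from sham down to hand acupuncture, the reverse of Ldha and of the brightest Pgk1 probe set. The further probe sets of Pfkfb2, all below the floor, were higher on hand acupuncture than on sham, by 0.25, 0.21 and 2.48.

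Transport of the fuel and its entry into mitochondria had few wide differences. Of 8 glucose and lactate transport genes, 8 were found and 6 were above the floor, with a median of -0.012 for TBI minus sham, 0.072 between hand acupuncture and TBI, and 0.085 between hand acupuncture and sham, and none was 1.5-fold apart. Slc2a8, an intracellular glucose transporter, had 9.08, 8.69 and 8.66, and Slc16a7, a monocarboxylate transporter of neurons, had 8.54, 8.31 and 8.66. Slc2a3, the neuronal glucose transporter, had 10.29, 10.28 and 10.42, and Slc16a1, which carries lactate across the blood-brain barrier, had 11.03, 11.02 and 11.17. In the probe sets used, the latter 3 transporters were highest on the hand acupuncture array, by at most 1.27-fold over TBI. The further probe sets of Slc2a3 and Slc16a1, below the floor, were lower there than on TBI, by log2 differences of -0.60 and -1.18.

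Of 14 genes of pyruvate entry to mitochondria, 13 were found and all 13 were above the floor, with 10 higher for TBI minus sham (median 0.092), 7 between hand acupuncture and TBI (0.0032), and 9 between hand acupuncture and sham (0.082). Pdp2, a phosphatase that switches pyruvate dehydrogenase on, had 7.20, 7.45 and 7.81 across sham, TBI and hand acupuncture. Its 1.53-fold between hand acupuncture and sham was the only one past 1.5-fold in this list. Like Pfkfb4, Pdp2 reached the floor only through the hand acupuncture array, with a mean of 7.33 over the other 2, and its second probe set, just below the floor, went the opposite way. Pdk4, a kinase that switches the same enzyme off, had 9.87, 10.43 and 10.16, highest on the TBI array, and its second probe set above the floor was also higher on TBI than on sham, by 0.68. Pc, pyruvate carboxylase, had 8.79, 9.14 and 8.73, and Pdk2, another kinase of the complex, had 10.35, 10.12 and 10.13. These kinases thus lay on both sides of sham, and Pdk1, a HIF target in this list and in that of hypoxia-inducible genes, named after its values were seen, had 9.36, 9.46 and 9.57.

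**Figure D4:**
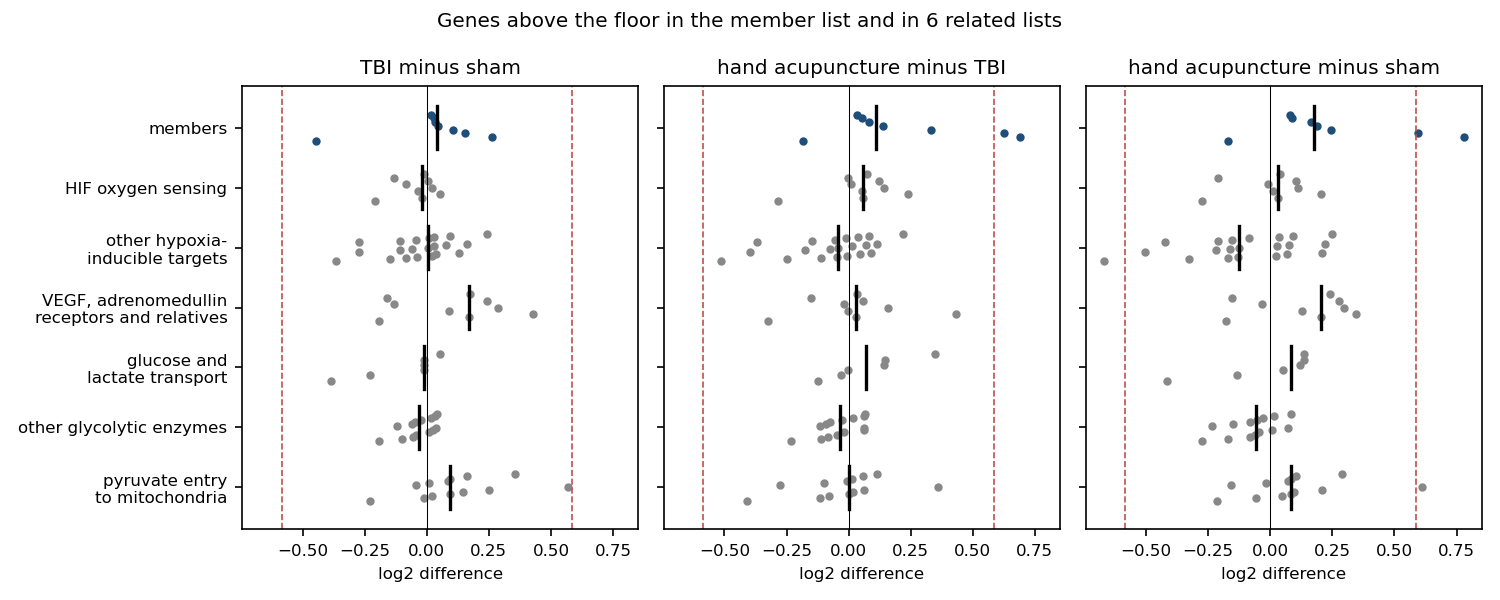
Log2 difference of each gene above the floor in the member list (blue) and in 6 related lists (grey) for the 3 comparisons, with list medians as black bars and 1.5-fold as dashed lines. On hand acupuncture minus sham the member median is 0.18. That of other hypoxia-inducible targets is -0.13 (0.023 with those below the floor) and that of other glycolytic enzymes is -0.057. The median of VEGF and adrenomedullin receptors and relatives, 0.20, is above that of the members. Glucose and lactate transport has 0.085, pyruvate entry to mitochondria 0.082 and HIF oxygen sensing 0.032. Members and lists were chosen with earlier results of these data known.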

How the data were processed

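The deposited values are log2 signals of 31099 probe sets on 3 arrays. The submitters' processing notes name MAS5, Affymetrix's summary of perfect-match and mismatch probes, without a version. Log base and scaling were read from the values: the linear mean with 2% trimmed at each end was 500.0 on each array.

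In a platform annotation of 2016, 20826 probe sets had exactly 1 symbol, giving 14217 genes, of which 9241 reached the floor of 7.44. All 10 members matched RefSeq (GRCr8) by identifier.

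Each comparison is the log2 difference of 2 arrays, with a threshold of 1.5-fold. Genes of like signal were grouped in 4 bands: below the floor, to the 75th percentile (9.25), to the 90th, and above. From each list, up to 4 genes above the floor with the largest difference were named; others are stated. The members and lists were chosen with earlier results of these data known. Alternatives were quantile normalization, median centring, no floor, a floor of 9.25, an offset of 50, the mean of a gene's probe sets, and 2-fold and 3-fold thresholds. Tools were numpy 2.4.6, pandas 2.3.3 and matplotlib 3.10.9 under Python 3.11.15, and scripts were tested on simulated data.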

Additional observations from a re-analysis of the deposited data

How the results depend on the processing

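No paired analysis was possible because each group has 1 array, and no array could be left out. The median over members was above 0 under each alternative run, from 0.030 to 0.070 for TBI minus sham, from 0.068 to 0.12 for hand acupuncture minus TBI and from 0.14 to 0.18 for hand acupuncture minus sham. With the floor of 9.25, which left 4 members, it moved by over 1.5 times for the first, from 0.040 to 0.070, and for the second, from 0.11 to 0.068. The mean of a gene's probe sets left 6 members above its floor, with 4 higher and 2 lower for TBI minus sham. Leaving out Pfkfb4 was added after seeing the data. Counts of all genes at least 1.5-fold apart, 143, 112 and 175 in the order of those comparisons, moved by over 1.5 times with the floor, the offset and the threshold. They were 1927, 1882 and 2036 without a floor, 37, 20 and 33 with the floor of 9.25, and 86, 66 and 111 with the offset of 50. With the 2-fold threshold they were 9, 4 and 18, and with 3-fold 0, 0 and 1. Quantile normalization and median centring kept each count within 1.5 times. Of the members, Pfkfb4 turned from 0.63 to -0.17 for hand acupuncture minus TBI with the mean of its probe sets, where the dim one takes part. With that mean Pgk1 was -0.17 for TBI minus sham and 1.08 for hand acupuncture minus sham, and Pfkfb3 was 0.70 for the latter, each through a probe set far below the floor. Signal over background limits Adm and Hk2, whose differences are not readable here.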
